A study of Homo sapiens with 4 samples.

Results

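The genes described here are 32 genes of sterol and fatty acid synthesis, out of 20037 protein-coding genes in the annotation. They were chosen by name: 18 encode enzymes of the sterol branch, 8 encode enzymes of the fatty acid branch, 5 encode regulators of both branches and 1, STARD4, encodes a sterol carrier. The cells were 786-O, a human clear cell renal cell carcinoma line without functional VHL. Open chromatin was read by ATAC-seq, an assay that uses Tn5 to cut and tag DNA wherever the transposase can reach it. Cells received ACSS2i at 5 µM for 24 h, or DMSO, the vehicle, diluted 1:2000, with 2 libraries per treatment and 1 peak list per library. ACSS2i is named in the labels as directed at ACSS2, the enzyme that makes acetyl-CoA from acetate. The labels do not say that the 2 libraries of a treatment came from separate cultures, so the spread between them may be technical. No two-sided exact permutation p below 0.333 can be reached with 2 against 2 libraries, and the deposited values of a peak are relative to its own library, so the values below are a description with no test.

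Cholesterol and fatty acids are both built from acetyl-CoA. The sterol branch runs from acetyl-CoA through mevalonate, the isoprenoid diphosphates and squalene to lanosterol and cholesterol, and the fatty acid branch runs from malonyl-CoA to palmitate, which is then elongated and desaturated. Transcription of both branches is driven by SREBP factors, encoded by SREBF1 and SREBF2, which are made as membrane proteins, carried from the endoplasmic reticulum to the Golgi by SCAP and held back by INSIG1 and INSIG2 when sterols are plentiful. At their target promoters SREBP factors bind sterol regulatory elements beside sites for NF-Y, which reads CCAAT, and SP1, which reads GC-rich boxes.

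The letters before the starts of 6 genes are printed here as examples, picked by whether their start peak was called in ACSS2i. HSD17B7, SREBF1 and SCAP had a peak at the start in both DMSO libraries and in neither ACSS2i library. SREBF2, HMGCS1 and MSMO1 had a peak at the start in all 4 libraries. ACACB, not printed, had the pattern of HSD17B7 and held CCAAT. The starts of CYP51A1, PMVK, FADS1, FADS2 and INSIG2, also not printed, had a peak in all 4 libraries and held no CCAAT. The 6 examples therefore do not show whether these letters go with a kept or a lost peak. Each line holds the 250 bases before a start annotated by RefSeq on GRCh38.p14, read 5′ to 3′ on the strand of the gene, with motif letters in capitals. The capitals mark, on either strand, the sterol regulatory element written TCACNCCAC, the NF-Y motif CCAAT, the GC box GGGCGG and the E-box CACGTG. The windows are chr1:162790452-162790701 on the plus strand for HSD17B7, chr17:17836987-17837236 on the minus strand for SREBF1, chr3:47475942-47476191 on the minus strand for SCAP, chr22:41832855-41833104 on the plus strand for SREBF2, chr5:43313413-43313662 on the minus strand for HMGCS1 and chr4:165327419-165327668 on the plus strand for MSMO1.
HSD17B7: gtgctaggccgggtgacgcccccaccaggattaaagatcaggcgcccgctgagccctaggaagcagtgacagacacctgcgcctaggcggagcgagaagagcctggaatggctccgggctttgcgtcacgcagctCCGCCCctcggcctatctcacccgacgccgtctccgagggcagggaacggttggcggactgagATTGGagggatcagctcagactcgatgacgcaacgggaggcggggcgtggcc
SREBF1: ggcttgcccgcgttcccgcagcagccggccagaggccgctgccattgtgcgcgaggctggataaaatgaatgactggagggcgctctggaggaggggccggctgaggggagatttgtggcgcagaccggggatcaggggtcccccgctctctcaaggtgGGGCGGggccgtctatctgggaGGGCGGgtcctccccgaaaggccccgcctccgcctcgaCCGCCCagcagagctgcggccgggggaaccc
SCAP: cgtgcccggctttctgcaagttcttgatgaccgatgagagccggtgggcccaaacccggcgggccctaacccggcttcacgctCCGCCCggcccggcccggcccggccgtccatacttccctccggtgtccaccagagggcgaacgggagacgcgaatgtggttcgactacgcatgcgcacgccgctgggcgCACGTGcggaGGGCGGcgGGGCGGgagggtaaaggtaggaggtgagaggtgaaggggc
SREBF2: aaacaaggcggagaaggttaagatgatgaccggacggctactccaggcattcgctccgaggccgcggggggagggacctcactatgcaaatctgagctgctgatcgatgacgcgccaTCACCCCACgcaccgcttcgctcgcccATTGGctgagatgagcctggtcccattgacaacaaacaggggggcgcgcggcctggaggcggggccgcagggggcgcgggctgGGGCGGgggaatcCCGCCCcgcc
HMGCS1: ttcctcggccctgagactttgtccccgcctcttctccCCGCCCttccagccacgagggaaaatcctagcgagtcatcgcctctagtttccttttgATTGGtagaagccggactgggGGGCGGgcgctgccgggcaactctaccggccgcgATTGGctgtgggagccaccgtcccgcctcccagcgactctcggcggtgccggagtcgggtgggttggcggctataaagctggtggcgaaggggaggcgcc
MSMO1: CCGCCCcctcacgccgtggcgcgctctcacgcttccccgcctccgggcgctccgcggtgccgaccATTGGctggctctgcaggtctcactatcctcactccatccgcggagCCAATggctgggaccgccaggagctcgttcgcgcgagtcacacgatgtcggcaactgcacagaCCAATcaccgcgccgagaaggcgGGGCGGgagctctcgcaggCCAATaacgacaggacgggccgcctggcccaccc

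In ACSS2i the called peaks covered 0 bases of the windows of HSD17B7, SREBF1 and SCAP, which follows from how these genes were picked. In DMSO replicates 1 and 2 they covered 109 and 168 of the 250 bases for HSD17B7, 166 and 212 for SCAP, and all 250 in both libraries for SREBF1. The windows of HMGCS1 and MSMO1 lay wholly inside a peak in all 4 libraries, and that of SREBF2 was covered over 167 bases in ACSS2i replicate 1 and over all 250 in ACSS2i replicate 2 and both DMSO libraries.

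The promoter table held 28 of the 32 genes, and SQLE, FDFT1, ACAT2 and FASN had no entry in it. CCAAT, the NF-Y letters, occurred in the 250 bases before a start in 20 of the 28 genes (71.4%), beside 40.2% of 15843 protein-coding genes in the table and 43.8% of those whose start was open in both DMSO libraries. At least 2 matches to CCAAT occurred in 14 of the 28 genes, beside 13.7% of all genes in the table. MSMO1 had 4 such matches and HMGCS1 had 2 in the windows above. By branch, 13 of 15 sterol genes and 4 of 7 fatty acid genes held CCAAT. Of the regulators, SREBF2 and INSIG1 held it and SREBF1, SCAP and INSIG2 did not.

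GGGCGG, the GC box, occurred in 26 of the 28 genes, beside 62.1% of all genes and 76.5% of those open at the start in both DMSO libraries. TCACNCCAC, written for the sterol regulatory element, occurred in 1 of the 28, SREBF2, where it lies 133 to 125 bases before the start, beside 1.19% of all genes. CACGTG, the E-box, occurred in 4 of the 28, among them SCAP and INSIG1, beside 9.73% of all genes. Both strands were searched, overlapping matches were counted separately, and a gene with several starts counted once if any start matched. A match is a description of these letters and not a bound site, and a motif without a match is only absent from these windows.

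The lists held 16400 and 22044 peaks in ACSS2i replicates 1 and 2, against 34696 and 50294 in DMSO replicates 1 and 2. The sources used here give no read totals, so a library with less signal and cells with less open chromatin cannot be told apart. The fold of a peak is the authors' enrichment over background within 1 library, and its median over a list was 4.65 and 4.30 in ACSS2i, against 5.35 and 6.65 in DMSO. A fold or a rank is therefore used only to describe a peak within its own list, and ranks from lists of different lengths cannot show a change. Gene-end peaks were found for 5 and 7 of 9 kidney epithelium and clear cell carcinoma markers in ACSS2i and 7 and 7 in DMSO, with PAX2 and CA9 absent from all 4 lists. Of 5 endothelial markers 0 had a peak in any list, and of 5 blood and 4 hepatocyte markers CD14 and APOA1 had a peak in DMSO replicate 2 alone.

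Most of the 32 genes kept an accessible end after ACSS2i. A peak within 1000 bp of either end of the gene, called a gene-end peak here, was present for 22 and 24 of the 32 genes in ACSS2i replicates 1 and 2, against 27 and 30 in DMSO replicates 1 and 2. Over all protein-coding genes the shares were 32.5% and 40.7% in ACSS2i, against 52.6% and 60.0% in DMSO. Both DMSO lists held a gene-end peak for 27 of the genes, of which 19 (70.4%) kept it in both ACSS2i lists as well, beside 58.0% of the 10471 protein-coding genes of the same kind. HSD17B7 and SREBF1, 2 of the 27 (7.41%), had none in either ACSS2i library, a pattern called lost here and seen in 18.9% of those 10471 genes. The other 6, IDI1, SC5D, ACACA, ACACB, ELOVL5 and ELOVL6, had a peak in 1 of the ACSS2i libraries.

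None of the 32 genes was gained, that is, present in both ACSS2i libraries and neither DMSO library, and over the 7950 genes without a DMSO peak the share was 0.0%. Without ACSS2i replicate 2, 6 of 27 were lost, beside 38.1% of all genes. Without ACSS2i replicate 1, 4 of 27 were lost, beside 22.8%, and without DMSO replicate 1, 4 of 30, beside 28.5%. With every list cut to the 16400 peaks of highest −log10 q, 0 of 18 genes were lost and 17 of 18 were present in all 4 lists, beside 5.29% and 79.5% of all genes.

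**Figure D1:**
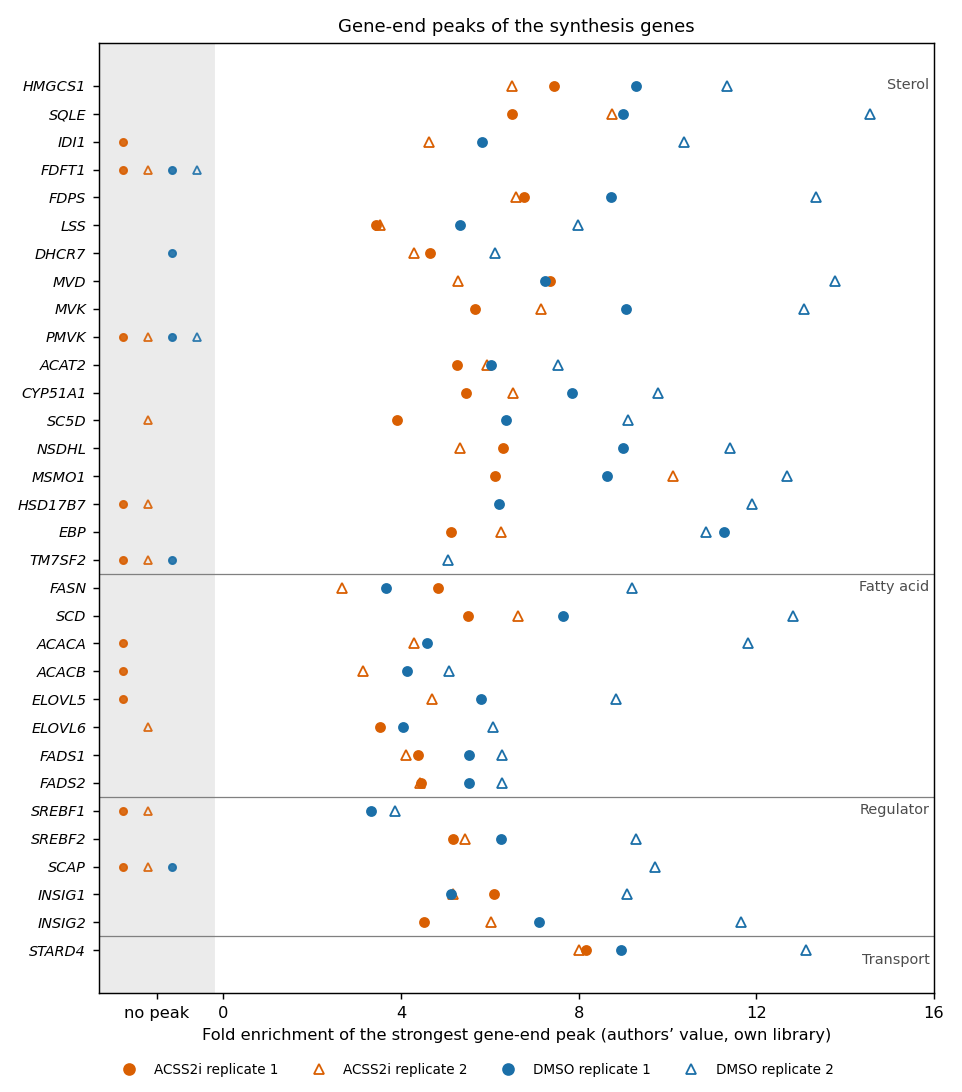
Fold enrichment (x axis, the authors' value within each library) of the strongest gene-end peak of each of the 32 genes (rows, by role), with ACSS2i in orange, DMSO in blue, replicate 1 as filled circles and replicate 2 as open triangles; the grey strip holds libraries without a peak. HSD17B7 and SREBF1 are the rows with both orange symbols and neither blue symbol in the strip, and FDFT1 and PMVK have all 4 symbols there.

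In the sterol branch, 13 and 13 of 18 genes had a gene-end peak in ACSS2i, against 14 and 16 in DMSO, and 11 of the 14 present in both DMSO libraries were present in all 4. HMGCS1, which condenses acetoacetyl-CoA with acetyl-CoA to HMG-CoA, had among the strongest peaks of every list. Its peak lay over the start at the upper end of chr5:43287470-43313412, with folds of 7.44 and 6.49 in ACSS2i, against 9.29 and 11.3 in DMSO. By −log10 q, the authors' measure of peak strength, that peak stood at percentiles 98.6 and 97.9 of the ACSS2i lists, against 99.9 and 99.9 of the DMSO lists. SQLE, which makes squalene epoxide, was close to it. Its folds were 6.49 and 8.75 in ACSS2i, against 9.01 and 14.6 in DMSO, at percentiles of at least 93.2 in every list.

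The earlier enzymes of the mevalonate route were mostly open in all 4 libraries. ACAT2, which makes acetoacetyl-CoA in the cytosol and whose span ends beside SOD2, had folds of 5.26 and 5.94 in ACSS2i, against 6.02 and 7.53 in DMSO. MVK, mevalonate kinase, shares its promoter region with MMAB and had folds of 5.66 and 7.16 in ACSS2i, against 9.06 and 13.1 in DMSO. FDPS, farnesyl diphosphate synthase, had folds of 6.78 and 6.59 in ACSS2i, against 8.72 and 13.3 in DMSO. For ACAT2, MVK and FDPS the ACSS2i folds lay below both DMSO folds, as they did for most listed genes open in all 4 libraries. The same held for the medians over the 6075 genes open at an end in all 4 libraries, which were 5.00 and 5.04 in ACSS2i, against 7.06 and 10.1 in DMSO. The share of all genes with such folds was not counted, so these folds are not read as a change.

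MVD, which decarboxylates mevalonate diphosphate, showed 2 ends with different values. At its start the folds were 5.41 and 5.51 in ACSS2i, against 7.25 and 13.8 in DMSO. At its far end, beside CYBA, the peak had folds of 7.36 and 5.28 in ACSS2i, against 5.81 and 8.85 in DMSO, and by −log10 q it was the stronger of the 2 peaks in both ACSS2i lists and the weaker in both DMSO lists. PMVK, phosphomevalonate kinase, and FDFT1, squalene synthase, had no gene-end peak in any list because their peaks lay inside the span. The nearest PMVK peak lay 5186 and 5286 bp from an end in ACSS2i, against 4952 and 4975 bp in DMSO, and that of FDFT1 6804 and 6693 bp in ACSS2i, against 6597 and 6644 bp in DMSO. At the annotated start of PMVK a peak was present in all 4 libraries, with folds of 4.27 and 4.18 in ACSS2i, against 7.21 and 6.29 in DMSO. The internal FDFT1 peak was also present in all 4, with folds of 6.94 and 5.28 in ACSS2i, against 6.06 and 12.5 in DMSO.

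IDI1, which isomerises isopentenyl diphosphate, differed between its starts. At the upper end of its span, shared with WDR37, no peak was called in ACSS2i replicate 1 and the fold was 4.62 in ACSS2i replicate 2, against 5.82 and 10.4 in DMSO. At an internal start the peak was stronger and was called in all 4 libraries, with folds of 6.64 and 8.92 in ACSS2i, against 8.77 and 12.7 in DMSO.

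Among the enzymes that turn squalene epoxide into cholesterol, CYP51A1 (lanosterol demethylase), MSMO1 and NSDHL (which remove the methyl groups at carbon C-4) and EBP (the sterol isomerase) were open in all 4 libraries. MSMO1 had folds of 6.13 and 10.1 in ACSS2i, against 8.64 and 12.7 in DMSO, so that the 2 treatments overlapped. CYP51A1 had folds of 5.46 and 6.52 in ACSS2i, against 7.86 and 9.79 in DMSO. NSDHL, beside CETN2, had folds of 6.29 and 5.33 in ACSS2i, against 8.998 and 11.4 in DMSO. For CYP51A1 and NSDHL, as for most listed genes open in all 4 libraries, the folds of the treatments did not overlap. The same held for the medians over the 6075 genes open at an end in all 4 libraries, 5.00 and 5.04 in ACSS2i, against 7.06 and 10.1 in DMSO. How many of all genes had folds without overlap was not counted. EBP had folds of 5.13 and 6.24 in ACSS2i, against 11.3 and 10.9 in DMSO, and its peak was 164 and 503 bp wide in ACSS2i, against 713 and 801 bp in DMSO. LSS, which closes the rings of lanosterol, was called in all 4 libraries but close to the q threshold of the list in ACSS2i replicate 1. The −log10 q of its peak reached 2.30 and 4.68 in ACSS2i, against 8.83 and 30.5 in DMSO, and the lowest values of the lists lie just above 2.

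HSD17B7, the ketoreductase that acts with MSMO1 and NSDHL in removing the same methyl groups, was the 1 lost gene among the sterol enzymes. The gene spans chr1:162790702-162812823 and had folds of 6.21 and 11.9 in DMSO replicates 1 and 2, with −log10 q of 9.33 and 29.3. The DMSO peaks were narrow, 195 and 254 bp, with summits 241 and 183 bp before the start, inside the window printed above. In ACSS2i replicates 1 and 2 the peak nearest to an end of the gene lay 228103 and 91781 bp away. The DMSO peak stood at percentiles 46.7 and 69.1 of its lists, below the median of the branch, which was 88.3 in DMSO replicate 1 and 91.1 in DMSO replicate 2 over the 14 genes present in both.

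SC5D and DHCR7, which act late in the pathway, and TM7SF2, which acts soon after CYP51A1, were split between replicates of a treatment. SC5D, the sterol desaturase, had a fold of 3.92 in ACSS2i replicate 1 and no peak in ACSS2i replicate 2, where the nearest lay 1855 bp from an end, against 6.37 and 9.11 in DMSO. DHCR7, which reduces 7-dehydrocholesterol to cholesterol, ran the other way. It had folds of 4.64 and 4.30 in ACSS2i, against no peak in DMSO replicate 1, where the nearest lay 3786 bp away, and 6.11 in DMSO replicate 2. For TM7SF2, a sterol reductase, gene-end peaks were called in DMSO replicate 2 alone: the one at the far end, beside ZNHIT2, had a fold of 5.07 and the one at the start 3.15. The nearest peak lay 5929 and 1298 bp from an end in ACSS2i and 1053 bp in DMSO replicate 1, the last being just outside the 1000 bp window.

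In the fatty acid branch, 5 and 7 of 8 genes had a gene-end peak in ACSS2i, against 8 and 8 in DMSO. Of the 8 genes, 4 were present in all 4 libraries, 4 were missing from 1 ACSS2i list and 0 were lost. FASN, fatty acid synthase, had folds of 4.82 and 2.68 in ACSS2i, against 3.66 and 9.20 in DMSO. Its percentiles were 69.8 and 16.9 in ACSS2i, against 34.8 and 96.8 in DMSO, so replicates of a treatment differed more than the treatments did. SCD, the desaturase that makes oleate, had its strongest peak at the far end of the gene in all 4 libraries, with folds of 5.51 and 6.64 in ACSS2i, against 7.64 and 12.8 in DMSO. At its start the folds were 3.21 and 4.35 in ACSS2i, against 5.03 and 7.33 in DMSO.

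ACACA and ACACB encode the acetyl-CoA carboxylases that make malonyl-CoA, ACACA in the cytosol for synthesis and ACACB at the mitochondrion, where malonyl-CoA restrains fatty acid oxidation. At the upper end of ACACA, beside TADA2A, no peak was called in ACSS2i replicate 1 and the fold was 4.28 in ACSS2i replicate 2, against 4.59 and 11.8 in DMSO. An internal ACACA start was open in all 4 libraries, with folds of 5.79 and 5.31 in ACSS2i, against 5.98 and 12.3 in DMSO. ACACB had the lowest DMSO percentiles of −log10 q in the branch, 18.0 and 22.6. At its lower end, beside UNG, no peak was called in ACSS2i replicate 1 and the fold was 3.14 in ACSS2i replicate 2, against 4.14 and 5.08 in DMSO. At an annotated start inside its span a peak was called in DMSO alone, with folds of 4.05 and 3.77 and −log10 q of 4.39 and 3.66.

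The elongases were each missing from 1 ACSS2i list. ELOVL5, which elongates polyunsaturated chains, had no peak in ACSS2i replicate 1 and a fold of 4.71 in ACSS2i replicate 2, against 5.81 and 8.83 in DMSO. ELOVL6, which elongates palmitate to stearate, had a fold of 3.53 in ACSS2i replicate 1 and no gene-end peak in ACSS2i replicate 2, where the nearest lay 1898 bp from an end, against 4.03 and 6.08 in DMSO. Where the summit itself had to lie in the window, and at equal list length, ELOVL6 was called in ACSS2i replicate 1 alone. FADS1 and FADS2, the front-end desaturases of polyunsaturated fatty acids, are divergent neighbours on chromosome 11 and share 1 region. At FADS1 the folds were 4.39 and 4.12 in ACSS2i, against 5.54 and 6.27 in DMSO, with widths of 998 and 1104 bp in ACSS2i, against 2300 and 2186 bp in DMSO. At FADS2 the folds were 4.45 and 4.42 in ACSS2i, against the same shared peak of 5.54 and 6.27 in DMSO.

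Of the 5 regulators, SREBF2, INSIG1 and INSIG2 were open at the start in all 4 libraries, and SREBF1 and SCAP were open there in DMSO alone. SREBF2, whose product chiefly drives the sterol branch, had folds of 5.18 and 5.45 in ACSS2i, against 6.24 and 9.30 in DMSO, in a region it shares with an end of CCDC134. INSIG1 had folds of 6.10 and 5.17 in ACSS2i, against 5.13 and 9.09 in DMSO, so the treatments overlapped. INSIG2 had folds of 4.52 and 6.04 in ACSS2i, against 7.11 and 11.6 in DMSO, and its peak was 261 and 1295 bp wide in ACSS2i, against 1585 and 1615 bp in DMSO. INSIG1 and INSIG2 encode the anchors that retain SCAP in the endoplasmic reticulum.

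SREBF1, whose product chiefly drives the fatty acid branch, spans chr17:17811334-17836986 on the minus strand. Over its start a broad and weak peak of 1702 and 1928 bp was called in DMSO, with folds of 3.32 and 3.86 and −log10 q of 7.02 and 16.4, and none was called in ACSS2i. Just inside the gene, a region at chr17:17834556-17835764 was called in all 4 libraries, with folds of 3.94 and 2.83 in ACSS2i, against 3.51 and 4.13 in DMSO. The ACSS2i peaks of that region began 1672 and 1447 bp from the end of the gene, so a window of 2000 bp counts SREBF1 as present in all 4 libraries. The region over the start begins at chr17:17835765, the base after the inner region. Its count as a separate lost region rests on the 1 bp merging rule. A region before the gene, at chr17:17840055-17840971, was also called in all 4, with folds of 4.11 and 4.77 in ACSS2i, against 4.53 and 7.04 in DMSO.

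SCAP, the escort of the SREBP factors, spans chr3:47413681-47477127 on the minus strand, and its annotated start lies inside that span. A peak at that start was called in DMSO alone, with folds of 5.02 and 9.72 and −log10 q of 7.26 and 34.2. The DMSO replicate 1 peak lay 1020 bp from the end of the span, so by gene ends SCAP was present in DMSO replicate 2 alone. In ACSS2i the nearest peak lay 32073 and 32095 bp from an end of the gene.

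STARD4, which moves cholesterol between membranes, had one of the strongest peaks of the 32 genes in every list. Its folds were 8.16 and 8.01 in ACSS2i, against 8.95 and 13.1 in DMSO, at percentiles 95.7 and 96.5 in ACSS2i, against 95.4 and 98.3 in DMSO.

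**Figure D2:**
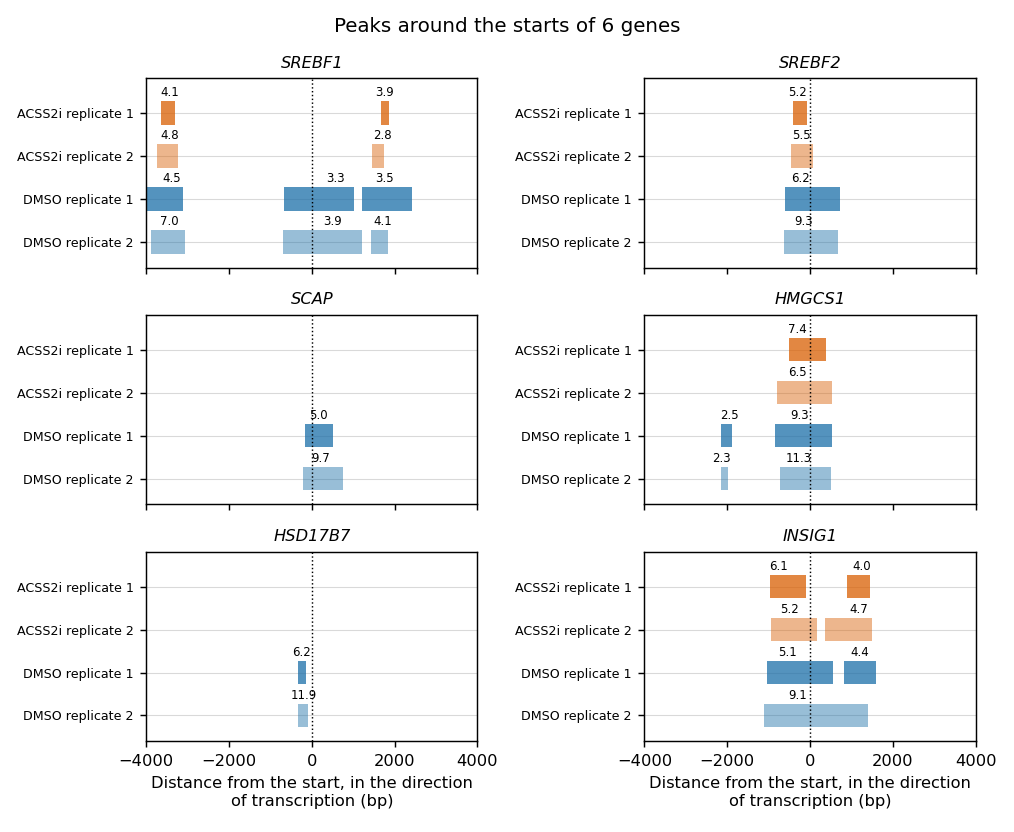
Called peaks (bars, with the authors' fold above each) in the 4 libraries (rows, ACSS2i in orange above DMSO in blue) against the distance from the annotated start in bp (x axis, positive into the gene) for 6 of the genes. HSD17B7, SCAP and SREBF1 have a bar within 1000 bp of the start in the DMSO rows alone, SREBF1 keeps bars on both sides of its start in every row, and SREBF2, HMGCS1 and INSIG1 have a bar within 1000 bp of the start in every row.

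For the 28 genes in the promoter table, annotated starts include some inside the span and leave out far ends. At annotated starts, 22 and 21 of the 28 genes had a peak within 1000 bp in ACSS2i, against 26 and 28 in DMSO. Of the 26 present in both DMSO libraries, 19 (73.1%) were present in all 4, beside 59.0% of 8887 protein-coding genes. HSD17B7, ACACB, SREBF1 and SCAP, 4 of the 26 (15.4%), were lost, beside 17.8% of those genes. The share of lost genes was thus near that of all genes at starts, although it was 7.41% by gene ends. Summits lay a median of 132.5 and 158 bp before the start in ACSS2i, against 139.5 and 129 bp in DMSO, while over all genes the medians were 73 and 59 bp before it in ACSS2i, against 56.5 and 44 bp in DMSO. In the sterol branch 8 of 13 and 8 of 12 summits lay within the 250 bases before the start in ACSS2i, against 11 of 13 and 11 of 15 in DMSO. In the fatty acid branch 1 of 5 and 1 of 5 did in ACSS2i, against 1 of 7 and 2 of 7 in DMSO, where the peak shared by FADS1 and FADS2 was counted for each. The median summit of that branch lay 135 and 60 bp before the start in ACSS2i, against 138 and 11 bp after it in DMSO. Over all genes those shares were 46.9% and 47.2% in ACSS2i, against 48.5% and 49.9% in DMSO.

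Over all protein-coding genes the share kept in ACSS2i increased with the strength of the peak in DMSO, so the listed genes were also read beside genes of the same DMSO strength. The lower of a gene's 2 DMSO percentiles of −log10 q was at least 80 for 13 of the 27 genes, 9 of them sterol enzymes, 1 the fatty acid enzyme SCD, and the rest INSIG1, INSIG2 and STARD4. All 13 were present in all 4 libraries, beside 95.3% of the 3059 protein-coding genes in that bin. From 60 to 80, EBP, FADS1, FADS2 and SREBF2 were all present in all 4, beside 72.9% of genes. From 40 to 60, 1 of 5 was present in all 4 (LSS, beside 36.8%) and 1 of 5 was lost (HSD17B7, beside 22.4%). From 20 to 40, 1 of 4 was present in all 4 (FASN, beside 14.1%) and 1 of 4 was lost (SREBF1, beside 48.1%). ACACB, the 1 gene below 20, was neither kept in all 4 nor lost, beside 71.9% lost. By gene ends, the fatty acid branch had 4 of its 8 genes below 40 and the sterol branch 0 of 14, so the branches are compared at unequal strength. Starts inside the span are left out of these bins. At such starts ACACA stood at DMSO percentiles 70.5 and 98.1 and IDI1 at 97.0 and 99.5. SCD has its bin from its far end, and at its start stood at 64.8 and 84.4. DHCR7, TM7SF2, FDFT1 and PMVK, sterol genes without a gene-end peak in DMSO replicate 1, have no bin. The median DMSO percentile was 45.2 and 75.9 for the fatty acid genes and 88.3 and 91.1 for the sterol genes in DMSO replicates 1 and 2, beside 66.9 and 80.4 over all genes present in both. The DMSO peak that FADS1 and FADS2 share is counted for each in these bins and medians, and it sets the 75.9.

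**Figure D3:**
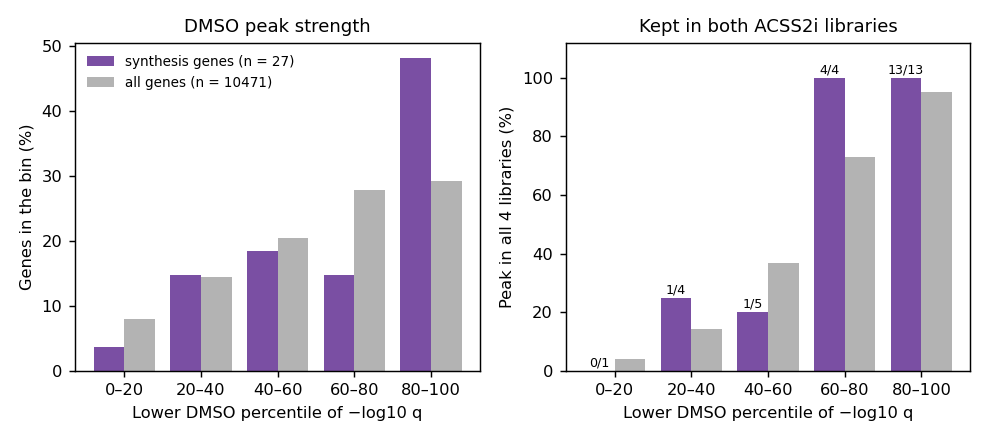
Left, percent of genes (y axis) in each bin of the lower DMSO percentile of −log10 q (x axis) for the 27 synthesis genes (purple) and the 10471 protein-coding genes (grey) whose ends were open in both DMSO libraries; right, percent of the genes of each bin with a peak in all 4 libraries. In the top bin 13 of 13 synthesis genes and 95.3% of all genes had a peak in all 4 libraries.

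To compare strength over 1 set of regions, peaks of the 4 libraries that overlapped by at least 1 bp were merged into regions, and −log10 q was ranked among the 13306 regions called in all 4 libraries. For 20 of the 32 genes at least 1 such region lay at a gene end, 21 regions in all, since MVD and SCD have 2 each and FADS1 and FADS2 share 1. Each gene was given the rank of its strongest region. The gene's rank was lower in both ACSS2i libraries than in both DMSO libraries for 2 genes, HMGCS1 and NSDHL, beside 20.7% of the 5238 shared gene-end regions. It was higher for 3 genes, ACAT2, SREBF2 and STARD4, beside 14.9% of those regions, and overlapped for the other 15. The median difference in percentile, ACSS2i minus DMSO, was 2.00 over the 20 genes and −2.38 over the shared gene-end regions. By branch it was −2.24 over 11 sterol genes, 3.90 over 5 fatty acid genes and 6.03 over 3 regulators, and STARD4 had 3.64. The strongest regions of MVD and SCD lay at their far ends, with differences of 20.7 and 3.90. At their starts the differences were −13.5 and −8.99, so the choice of end changes the sign for both genes. The region shared by FADS1 and FADS2 was counted for each.

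SREBF2 stood at percentiles 57.8 and 59.1 in ACSS2i, against 35.5 and 41.9 in DMSO, and ACAT2 at 63.4 and 69.4 in ACSS2i, against 54.3 and 40.6 in DMSO. NSDHL stood at 66.0 and 45.4 in ACSS2i, against 72.4 and 67.5 in DMSO. HMGCS1 and STARD4 differed by little. HMGCS1 stood at 98.3 and 96.5 in ACSS2i, against 99.6 and 99.6 in DMSO, and STARD4 at 94.8 and 94.3 in ACSS2i, against 88.2 and 93.7 in DMSO. ACAT2, SREBF2 and STARD4 were also higher without overlap when fold was ranked in place of −log10 q, while HMGCS1 and NSDHL were not lower by fold and LSS was. Within the full lists of unequal length, 10 genes were lower and 0 higher, beside 61.0% and 1.03% of gene-end regions.

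**Figure D4:**
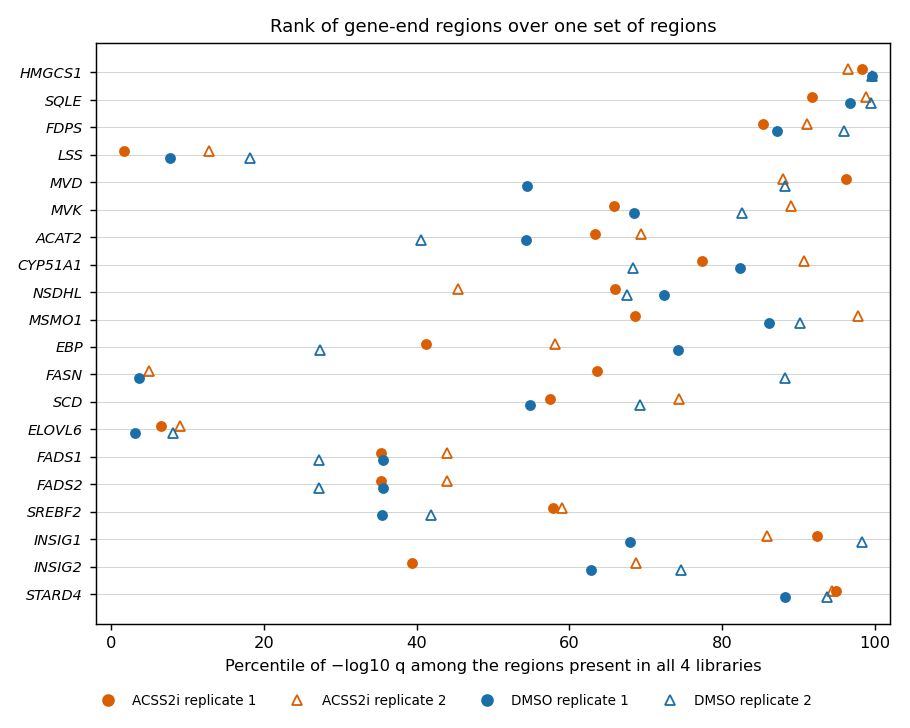
Percentile of −log10 q (x axis) of the strongest gene-end region of each gene (rows) among the 13306 regions called in all 4 libraries, with ACSS2i in orange, DMSO in blue, replicate 1 as filled circles and replicate 2 as open triangles. Both orange symbols lie to the right of both blue symbols for ACAT2, SREBF2 and STARD4 and to the left for HMGCS1 and NSDHL.

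Beyond the gene ends, the spans extended by 25 kb on each side held 116 merged regions, of which 57 and 62 were called in ACSS2i, against 87 and 114 in DMSO. Of the 85 called in both DMSO libraries, 49 (57.6%) were called in all 4 and 18 (21.2%) were lost, beside 31.7% lost among 25507 regions within 25 kb of any protein-coding span. None was called in both ACSS2i libraries and neither DMSO library. Away from any gene end 11 of 39 regions (28.2%) were lost, beside 39.0% of all such regions, and at the genes' own ends 3 of 31 (9.68%) were lost, beside 20.7% of all gene-end regions. Around sterol genes 9 of 40 regions were lost, around fatty acid genes 5 of 29 and around regulators 3 of 14. Away from any gene end, 5 of 12 (41.7%) were lost around sterol genes and 4 of 17 (23.5%) around fatty acid genes. Around regulators 1 of 9 such regions (11.1%) was lost and around STARD4 1 of 1. Without DMSO replicate 1, 45 of 114 regions were lost, without ACSS2i replicate 2, 29 of 85, and at equal list length 0 of 43. Over all regions of the 4 lists 55.7%, 52.2% and 6.41% were lost under those settings, and 33.5% with all libraries and full lists.

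Several genes that kept their promoter peak lost a neighbouring region. At STARD4 the region at chr5:111530195-111530716, in the flank before the start, had folds of 5.17 and 12.5 in DMSO and no peak in ACSS2i. HMGCS1 lost a region inside its span at chr5:43306090-43306697, with folds of 3.11 and 5.31 and −log10 q of 2.90 and 9.84 in DMSO. It also lost one before its start at chr5:43315301-43315574, with folds of 2.53 and 2.25 and −log10 q of 3.61 and 4.36 in DMSO. The flank of IDI1 at chr10:1036154-1037292 had folds of 6.37 and 8.60 in DMSO and no peak in ACSS2i. In SREBF1, whose gene-end peak was also lost, a region inside the span at chr17:17819756-17820103 was lost, with folds of 6.66 and 5.96 in DMSO. Exon and intron classes were not used here.

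**Figure D5:**
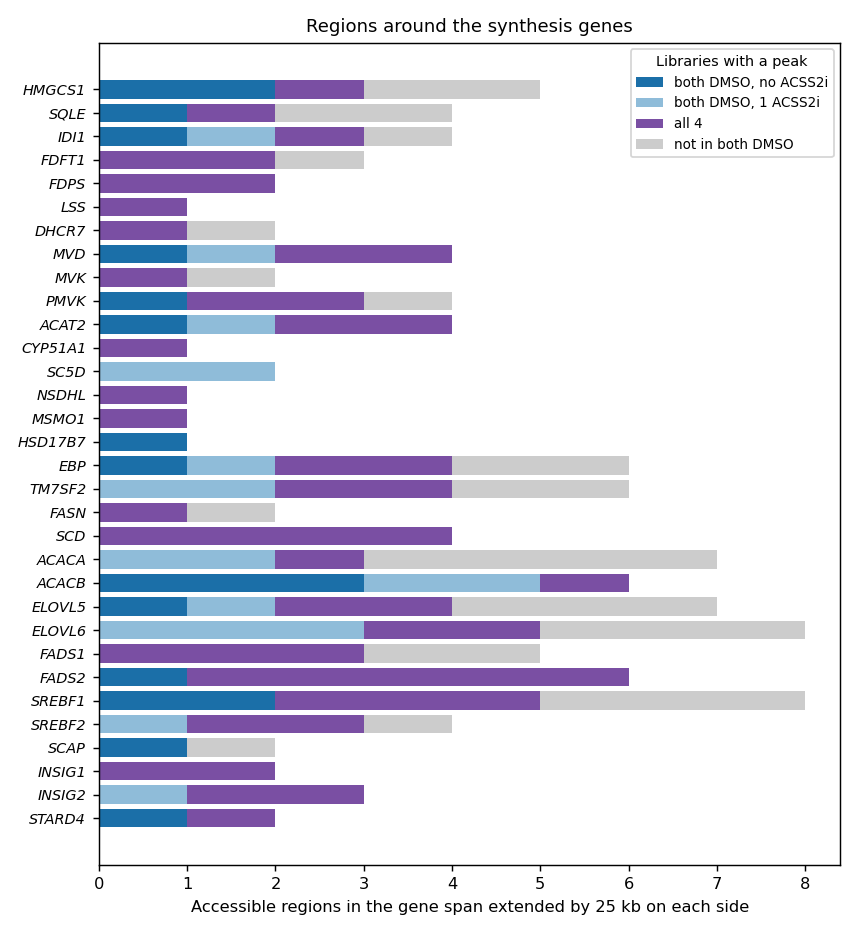
Number of merged accessible regions (x axis) in the span of each gene extended by 25 kb on each side (rows), coloured by the libraries that called them. The 116 regions comprise 18 called in both DMSO libraries and no ACSS2i library, 49 called in all 4 libraries, and the rest; a region shared by neighbouring genes is drawn for each.

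A further 52 genes of sterol, fatty acid and SREBP biology served as the rest of the pathway, and all 52 were found in the annotation. Of these, 24 and 33 had a gene-end peak in ACSS2i, against 36 and 42 in DMSO. Of the 35 present in both DMSO libraries, 23 (65.7%) were present in all 4 and 3 (8.57%) were lost, beside the 58.0% and 18.9% of all genes given above. The 3 were MBTPS2, the membrane protease that makes the second cut in SREBP factors, ERLIN2, a scaffold of the endoplasmic reticulum, and ACSL1, an acyl-CoA synthetase. MBTPS2 had folds of 5.83 and 8.09 in DMSO and no peak in ACSS2i. ACSL1 had folds of 4.41 and 8.47, and ERLIN2 had 5.07 and 6.37, also in DMSO alone.

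HACD2, SP1 and GGPS1 were among the highest by DMSO percentile, and each was present in all 4 libraries. SP1, the GC box factor, had folds of 7.57 and 9.79 in ACSS2i, against 9.12 and 9.34 in DMSO, so its treatments overlapped. HACD2, a dehydratase of chain elongation, had folds of 7.49 and 6.88 in ACSS2i, against 9.30 and 12.5 in DMSO. GGPS1, which makes geranylgeranyl diphosphate, had folds of 5.79 and 7.06 in ACSS2i, against 6.66 and 9.24 in DMSO.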

How the data were processed

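Of the 4 libraries of 786-O cells, the labels give 2 as ACSS2i and 2 as DMSO. Per the submitters' processing notes, MACS2 2.1.2 was among the tools and hg38 was the build, and Trimmomatic 0.38, SAMtools 1.9 and Picard 2.18.26 are also named. The sources used here do not give the options of the peak caller, how Tn5 insertion sites were treated, which filter was applied to the lists, or read totals.

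The authors deposited, for each peak summit, a score that was not used, a fold enrichment ratio over background, a −log10 p-value and a −log10 q-value, each within 1 library, and a summit offset. Peaks were called per library. Summits that share an interval were counted as 1 peak with the values of the highest −log10 q. Gene spans and starts came from RefSeq tables of GRCh38.p14, the same build. A gene-end peak had any base within 1000 bp of either end of the span, and a start peak within 1000 bp of a start in the promoter table. No strand or exon structure beyond that table was used. Peaks overlapping by 1 bp were merged into 53572 regions. Percentiles are ranks of −log10 q within a list, or among the regions called in all 4.

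All 32 genes are accounted for. Folds per library are given for the regulators, for genes lost, for genes present in both ACSS2i libraries and for genes that differ within a treatment. LSS is given by −log10 q instead. Of the 52 further pathway genes, those lost and the 4 of highest DMSO percentile were to be named, and 1 of the 4 is not reported here. These members and lists were chosen with earlier results of these data known. Because fold and q are relative to their own library and exact permutation of 2 against 2 libraries is bounded at 0.333, no test was run, and counts stand beside the same share over all genes or regions. The counting code was tested on simulated data. Alternatives were another window, starts alone, summits, a −log10 q of at least 3, equal list length, another extension, rank or merging rule, a replicate block and each library left out. Python 3.11.15, numpy 2.4.6, pandas 2.3.3 and matplotlib 3.10.9 were used.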

Additional observations from a re-analysis of the deposited data

How the results depend on the processing

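The counts of the 32 genes with a gene-end peak per library, and of those present in all 4 (17 to 23), stayed within 1.5 times of the reported values under every alternative run. The count of lost genes, 2 as reported, was 2 to 6 when 1 library was left out (19.4% to 38.1% of all genes), 4 at starts alone (17.8%) and 0 at equal list length (5.29%). The count of gained genes, 0 as reported, was 0 to 1 when 1 library was left out and 1 at equal list length, and both cases were DHCR7. ELOVL6 changed sign: the share of libraries with a peak, ACSS2i minus DMSO, was 0.5 at equal list length and when the summit had to lie in the window, and −0.5 as reported. Genes ranked lower without overlap, 2 as reported, numbered 3 to 9 with a library left out, 1 by fold, 1 among gene-end regions and 10 within the full lists. Genes ranked higher, 3 as reported, numbered 4 to 10 with a library left out, 6 by fold, 7 among gene-end regions and 0 within the full lists. The extended spans held 63 regions for the span alone and 72 at equal list length. Their lost regions, 18 as reported, numbered 20 to 45 with a library left out (38.1% to 55.7% of all regions), 8 for the span alone and 0 at equal list length (6.41%). Equal length also removes any general difference in peak number. Beyond these constructions the cause was not tested.

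Replicate numbers were not taken as pairing the libraries, since only 2 pairs exist and the labels do not tie a number to a shared culture or day. Deviations of same-numbered libraries had a correlation of 0.0950 across the 13306 shared regions, which are not independent. With the replicate number as a block, 6 genes ranked lower and 5 higher in both pairs. The sources used here give neither depth nor the filter applied to the lists. A peak not called in a list is therefore not shown to be closed chromatin.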
